A study of Mus musculus with 11 samples.

Results

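The genes described here encode the nuclear subunits of oxidative phosphorylation, and they were followed across the livers of 11 mouse embryos at E15.5. Members were protein-coding genes whose GRCm38 symbol begins with Ndufa, Ndufb, Ndufc, Ndufs, Ndufv, Sdh, Uqcr, Cox4i, Cox5, Cox6, Cox7 or Atp5, assembly factors aside, with a mean count of 10 or more over the livers. There were 79 such genes among the 52636 in the count tables (13813 protein-coding genes reached that mean). Complex I held 38 of them, complex II 4, complex III 8, complex IV 14 and complex V 15, as sorted by symbol. The symbols matched 82 protein-coding genes in all. Cox7b2, Atp5g2 and Atp5l stayed below the mean count of 10 and are not among the members.

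The livers came from WT embryos (n = 3), Tnfr1-/- embryos (labelled Tnfr1 KO, n = 2), Casp8-/- Mlkl-/- embryos (Casp8 Mlkl dKO, n = 3) and Casp8-/- Tnfr1-/- embryos (Casp8 TNFR1 dKO, n = 3). Caspase-8 is a protease that restrains necroptosis, MLKL is the pore-forming protein that carries necroptosis out, and TNFR1 is a receptor for the cytokine TNF. The mutations were germline, so each liver cell type carried them, the background was C57BL/6 N, and no embryo was treated. The comparison of genotypes asks how loss of caspase-8 alters the liver when necroptosis is blocked by loss of MLKL and when only TNFR1 is missing.

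Oxidative phosphorylation is the mitochondrial process that makes most ATP in respiring cells. Complex I takes electrons from NADH and complex II from succinate, complex III hands them to cytochrome c, complex IV passes them to oxygen, and complex V, the ATP synthase, uses the resulting proton gradient. Complexes I, III, IV and V combine nuclear subunits with a few encoded by mitochondrial DNA, whereas complex II is wholly nuclear. The fetal liver is rich in erythroid precursors beside hepatocytes, and both are known for abundant mitochondria.

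The libraries held between 23129212 and 35819339 counted reads. Levels are given as CPM, the counts of a gene relative to its library's total, scaled to effective library sizes by the trimmed mean of M-values (TMM). Casp8-/- Tnfr1-/- liver 3 stood apart: its log2 CPM values correlated with the other livers at 0.84 to 0.891 across genes, and its TMM factor of 0.758 was the lowest. It was the only liver with high Xist, the transcript of the inactive X chromosome in females (3409 CPM against 0.115 to 0.57). Casp8-/- Mlkl-/- liver 1 had the next lowest factor (0.812). Casp8 stood at 27.7 to 33.9 CPM in the 5 WT and Tnfr1-/- livers, at 7.82 to 10.2 CPM in Casp8-/- Mlkl-/- livers, and at 13.1, 11.5 and 21.9 CPM in Casp8-/- Tnfr1-/- livers 1, 2 and 3. Mlkl stood at 0.73 to 1.22 CPM in Casp8-/- Mlkl-/- livers and at 3.68 to 4.46 CPM in WT and Tnfr1-/- livers. In Casp8-/- Tnfr1-/- livers 1, 2 and 3 it stood at 14.7, 13.3 and 24.6 CPM. Tnfrsf1a, which encodes TNFR1, stood at 49.8 and 50.5 CPM in the Tnfr1-/- livers and at 47.1 to 53.4 CPM in WT livers. It was not low in Casp8-/- Tnfr1-/- livers either, at 76.9, 76.0 and 424.8 CPM. Counts over the whole gene do not check which part was deleted. Because of liver 3, results are also given without it.

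Subunit levels spanned 3 orders of magnitude. Mean levels over the 11 livers ran from 0.699 to 1350 CPM, 16 members lay under 20 CPM and 8 lay over 200 CPM. The 3 WT livers were close to each other, with a median coefficient of variation over the members of 5.01%. Per kilobase of counted exon, the highest members were Atp5b, the catalytic beta subunit of ATP synthase (706 ± 90.3 CPM per kilobase; SD, n = 11), and Cox4i1, the common isoform of cytochrome c oxidase subunit 4 (446 ± 54.2). Uqcr10 (200 ± 31.3) led complex III, Sdhd, a membrane anchor (194 ± 33.6), led complex II, and Ndufa4 (146 ± 28.2) led the genes sorted to complex I by symbol, although its product is now placed in complex IV. The lowest members of each complex per kilobase were Ndufs5 (1.28 ± 0.496), Sdhc (36.4 ± 5.8), Uqcrb (6.74 ± 1.48), Cox6a2 (1.03 ± 2.16) and Atp5g1 (1.73 ± 0.377).

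Some members, low ones among them, share sequence with other annotated genes. Only uniquely mapped reads were used, so a 50-base read from a stretch with a copy elsewhere in the genome is lost. In 30 of the 79 members at least 5% of all 50-base stretches of their GENCODE M21 transcripts also occurred in another gene. The share was 21.7% for Ndufs5, 25.5% for Uqcrb, 22.1% for Cox7c, 18.3% for Ndufb4 and 41.6% for Atp5o. These shares also count annotated genes that overlap a member at the same place, where a read can still map uniquely. They do not tell how many reads were lost, and the absolute levels are uncertain to that extent.

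WT livers had the highest levels of most subunits, and Casp8-/- Tnfr1-/- livers the lowest. The mean over WT livers was the highest of the 4 genotypes for 62 of 79 members, against 26.8% of all tested genes. The mean over Casp8-/- Tnfr1-/- livers was the lowest for 55 members, against 40.5% of tested genes. Without Casp8-/- Tnfr1-/- liver 3 and Casp8-/- Mlkl-/- liver 1, those members numbered 69 and 58, against 25.9% and 34.3% of tested genes.

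The summed level of the 38 complex I genes was 2346, 2314 and 2286 CPM in the WT livers and 2022 and 1999 CPM in the Tnfr1-/- livers. It was 2347, 1970 and 1983 CPM in the Casp8-/- Mlkl-/- livers, and 1797, 1989 and 1870 CPM in the Casp8-/- Tnfr1-/- livers. Only Casp8-/- Mlkl-/- liver 1 reached the WT range, and the Tnfr1-/- and Casp8-/- Tnfr1-/- livers were all below it. Ndufa4l2 gave 66.4 CPM of the sum in Casp8-/- Mlkl-/- liver 1, against 4.50 to 9.76 CPM in WT livers.

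Complex V, whose genes carry the largest sum, stood at 3975, 3985 and 3814 CPM in WT livers and at 3580 and 3528 CPM in Tnfr1-/- livers. The Casp8-/- Mlkl-/- livers gave 4116, 3605 and 3554 CPM, and the Casp8-/- Tnfr1-/- livers 3166, 3399 and 2512 CPM. As in complex I, Casp8-/- Mlkl-/- liver 1 was the only mutant liver not below the WT livers. Complex III followed the same order, from 997, 991 and 982 CPM in WT livers to 762, 841 and 717 CPM in Casp8-/- Tnfr1-/- livers. For complex II the Casp8-/- Tnfr1-/- livers gave 658, 709 and 441 CPM against 823, 833 and 794 CPM in WT livers.

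Complex IV differed from the others in Casp8-/- Tnfr1-/- liver 3. Its sum was 1055, 1059 and 1088 CPM in WT livers, 863 and 868 CPM in Tnfr1-/- livers, and 1010, 897 and 864 CPM in Casp8-/- Mlkl-/- livers. In Casp8-/- Tnfr1-/- livers 1, 2 and 3 it was 742, 847 and 1027 CPM. All 8 mutant livers were below the WT livers. Livers 1 and 2 were at 69.5% and 79.3% of the WT mean, and liver 3 at 96.2%. In complexes I, II, III and V, liver 3 was at 80.7%, 54%, 72.4% and 64% of the WT mean. The complex I sum of liver 3 includes 273.5 CPM of Ndufa4l2, which stood at 4.50 to 9.76 CPM in WT livers. The median over complex I members was 67.6% of the WT mean in liver 3, and 77.3% and 85% in livers 1 and 2.

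**Figure D1:**
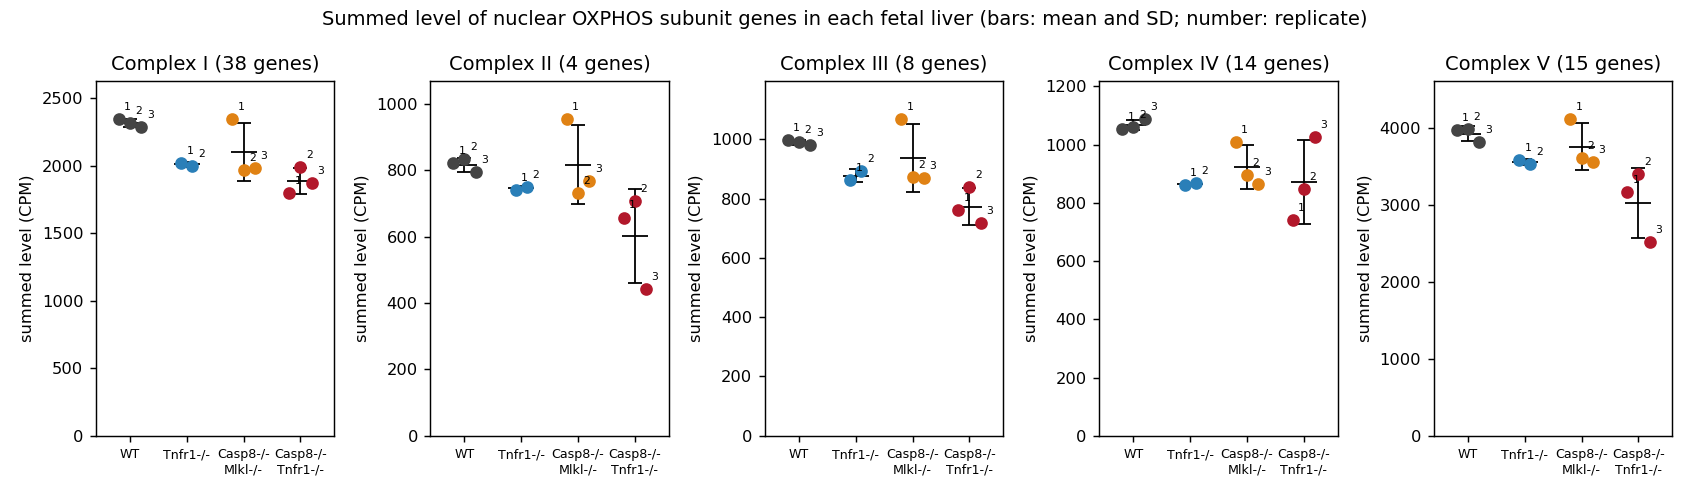
Summed CPM (vertical axes, from 0) of the subunit genes of each complex in each of the 11 livers, by genotype. Points are livers numbered by replicate, bars give the mean and SD. The WT livers lie above the mutant livers in complexes I, II, III and V except Casp8-/- Mlkl-/- liver 1, and in complex IV the nearest mutant liver is Casp8-/- Tnfr1-/- liver 3 (1027 CPM).

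Genotypes were tested gene by gene with edgeR's quasi-likelihood test over 17243 genes, with Benjamini-Hochberg adjustment and a threshold of 0.05. The 5 comparisons share livers, so they are not independent of each other. Between Casp8-/- Tnfr1-/- and WT livers, 3 members were lower and none was higher. That is 3.8% of members, against 0.702% of all tested genes called lower and 5.8% called in either direction. At an unadjusted p under 0.05, 38 members differed, against 24.6% of tested genes. The fitted log2 fold change was below 0 for 71 of 79 members, with a median of -0.36 against 0.00 (-0.0015) for all genes. By complex the median was -0.41 for I, -0.41 for II, -0.42 for III, -0.10 for IV and -0.31 for V.

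No member passed in the other comparisons with all 11 livers. The background shares called were 2.17% for Casp8-/- Tnfr1-/- against Tnfr1-/-, 1.65% against Casp8-/- Mlkl-/-, 0.0058% for Casp8-/- Mlkl-/- against WT and 0% for Tnfr1-/- against WT. At an unadjusted p under 0.05 the members numbered 3, 8, 7 and 5 in these comparisons, against 16.3%, 15.3%, 5.63% and 1.08% of tested genes. DESeq2 called 0, 3, 0 and 0 of them, against 7.36%, 5.46%, 0.522% and 0% of tested genes. In both comparisons of Casp8-/- Tnfr1-/- with another mutant genotype, the members' share was thus under that of tested genes. The fitted changes were below 0 for 58, 59, 66 and 74 of the 79 members, with medians of -0.15, -0.22, -0.16 and -0.19 (-0.01, -0.03, 0.03 and 0.00 over all genes). Complexes I to V had medians of -0.17, -0.03, -0.10, -0.19 and -0.16 for Casp8-/- Mlkl-/- against WT, and of -0.20, -0.16, -0.18, -0.26 and -0.18 for Tnfr1-/- against WT. Against Tnfr1-/-, the Casp8-/- Tnfr1-/- livers had medians below 0 in complexes I, II, III and V (-0.18, -0.24, -0.24 and -0.16) and above 0 in complex IV (0.18), where the median was -0.10 without liver 3. Over any of the 4 genotypes no member passed edgeR's test (3.6% of tested genes did), 16 did so at an unadjusted p under 0.05 (15.3% of tested genes did), and DESeq2's likelihood ratio test called 8, which is 10.1% of members and 10.1% of tested genes.

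The calls against WT rest on few livers. Without any single WT liver, none of the 79 members was called. Of tested genes, 2.14%, 1.72% and 1.63% were called without WT liver 1, 2 and 3. Without either of the Tnfr1-/- livers, or without Casp8-/- Mlkl-/- liver 2 or 3, 1 was called, and it was Ndufb9 each time. That is 1.27% or 1.28% of members. The share of tested genes was 3.03% and 3.1% without Tnfr1-/- liver 1 and 2. It was 4.72% and 4.31% without Casp8-/- Mlkl-/- liver 2 and 3. Without Casp8-/- Tnfr1-/- liver 1, only Ndufb9 (lower) and Cox4i2 (higher) were called. Without liver 2 there were 7 calls (8.97% of members and 8.49% of tested genes), and without Casp8-/- Mlkl-/- liver 1 there were 11 (14.1% and 9.45%).

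Without Casp8-/- Tnfr1-/- liver 3, 13 members were lower than in WT livers and none was higher, against 2.55% of tested genes called lower and 7.28% called higher. They were Ndufa5, Ndufb9, Ndufs7 and Ndufv1 of complex I, Uqcr11 and Uqcrh of complex III, Cox6a1, Cox6b1, Cox6b2 and Cox6c of complex IV, and Atp5f1, Atp5h and Atp5o of complex V. Of the 3 members called with all livers, 2 were among them. The median log2 fold change over members was -0.30, and the complexes then lay between -0.24 (II) and -0.36 (III), with complex IV at -0.33.

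Leaving out Casp8-/- Mlkl-/- liver 1 as well, a choice made after seeing the data, gave 51 members lower and 1 higher in Casp8-/- Tnfr1-/- livers than in WT livers. The background was then 13.5% of tested genes called lower and 17.8% called higher. The lower members were 24 of 38 in complex I, 4 of 4 in complex II, 5 of 8 in complex III, 8 of 14 in complex IV and 10 of 15 in complex V. The member called higher was Ndufa4l2. In the same fit 24 members were lower in Casp8-/- Mlkl-/- than in WT livers (background 3.18%) and 6 were lower in Tnfr1-/- than in WT livers (background 0.33%), with none higher (backgrounds 3.23% and 0.348%). Those 6 were Ndufa4, Ndufa5, Ndufb9, Uqcrh, Cox6b1 and Cox6c. Between Casp8-/- Tnfr1-/- and Tnfr1-/- livers only 3 members were called (Ndufb2, Ndufs3 and Ndufv1, all lower, with 9.3% of tested genes called lower and 13.9% higher), and between Casp8-/- Tnfr1-/- and Casp8-/- Mlkl-/- livers Cox6b2, Ndufs3 and Uqcr11 were lower and Ndufa4l2 higher (backgrounds 6.1% and 12%).

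**Figure D2:**
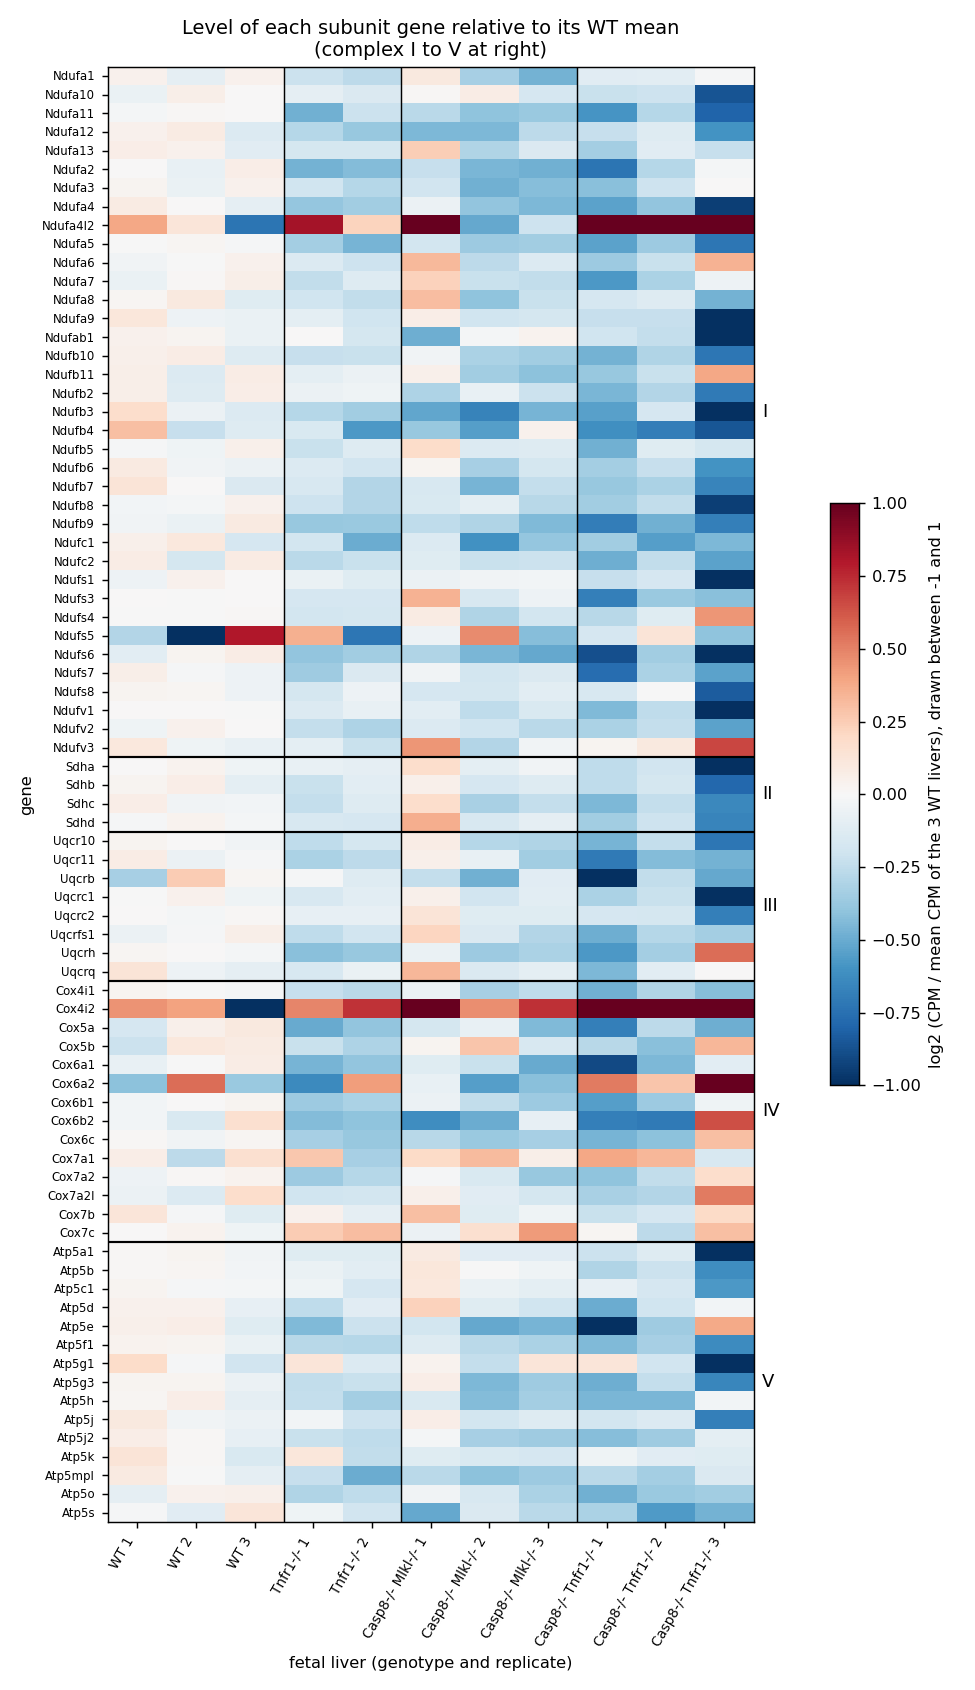
Log2 ratio of the CPM of the members, 1 left out, to their mean over the 3 WT livers (color, drawn between -1 and 1), with the genes in rows by complex and the 11 livers in columns. Most members are below their WT mean in every Tnfr1-/-, Casp8-/- Mlkl-/- and Casp8-/- Tnfr1-/- liver, by the least in Casp8-/- Mlkl-/- liver 1. There the median over the 79 members was 97.8% of the WT mean. Casp8-/- Tnfr1-/- liver 3 is lowest for 36 of the 79 members and highest for 14 (38.8% and 32.3% of tested genes).

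The livers of the mutant genotypes were also compared with the WT livers by overlap. All 3 Casp8-/- Tnfr1-/- livers were below all 3 WT livers for 49 members (62% against 18.9% of tested genes), and above them for Cox4i2 and Ndufa4l2 (19.5% of tested genes). Both Tnfr1-/- livers were below the WT livers for 62 members, against 18.4% of tested genes. The 3 Casp8-/- Mlkl-/- livers were below for 23 members (11.1%), and livers 2 and 3 of that genotype for 58 (19.2%), with Cox4i2 and Cox7c above (18.8%). Livers 1 and 2 of Casp8-/- Tnfr1-/- were below the WT livers for 67 members (26.6%) and above them for Cox4i2, Cox7a1 and Ndufa4l2 (27.2%). Casp8-/- Mlkl-/- liver 1 was the highest of all 11 livers for 21 members and the lowest for none (16.5% and 10.7% of tested genes). The 3 Casp8-/- Tnfr1-/- livers were below all 8 other livers for 16 members (3.32% of tested genes) and above them for none (7.43%), and livers 1 and 2 alone were for 24 (6%). For 14 members all 8 mutant livers were below all WT livers, against 4.91% of tested genes, and for Cox4i2 they were all above (2.93%). The 14 were Ndufa5, Ndufa11, Ndufb3, Ndufb7, Ndufb8, Ndufb9, Ndufs6, Ndufv1 and Ndufv2, with Cox4i1, Cox6a1, Cox6b1, Atp5f1 and Atp5mpl. Without the 2 livers with the lowest TMM factors there were 51 such members, against 7.21% of tested genes, and Cox4i2 was again above (4.83%). Cox4i2 is a low gene, with as few as 2 counts in a liver.

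The 3 members called with all livers were accessory subunits of complex I. Ndufb9 (ENSMUSG00000022354, GRCm38 chromosome 15, 58933756 to 58939488, plus strand), a membrane arm subunit, stood at 93.0, 91.0 and 101.2 CPM in WT livers and 73.0 and 73.7 CPM in Tnfr1-/- livers. The Casp8-/- Mlkl-/- livers gave 79.6, 77.2 and 69.9 CPM, and the Casp8-/- Tnfr1-/- livers 59.0, 68.3 and 59.2 CPM. The WT livers were the 3 highest and the Casp8-/- Tnfr1-/- livers the 3 lowest, with no overlap. The log2 fold change between the latter was -0.61 (SE 0.118, edgeR adjusted p = 0.016). For Ndufb9, 15.6% of 50-base stretches occurred in another annotated gene.

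Ndufa5 (ENSMUSG00000023089, chromosome 6, 24518666 to 24528013, minus strand), a subunit of the peripheral arm, stood at 36.5, 37.0 and 36.3 CPM in WT livers and 28.9 and 26.5 CPM in Tnfr1-/- livers. It stood at 32.2, 28.4 and 28.7 CPM in Casp8-/- Mlkl-/- livers and at 25.3, 28.4 and 22.2 CPM in Casp8-/- Tnfr1-/- livers. Only the WT livers were separate, and the mutant genotypes overlapped. Casp8-/- Tnfr1-/- livers differed from WT livers by -0.53 (log2, SE 0.132, edgeR adjusted p = 0.0453).

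Ndufs6 (ENSMUSG00000021606, chromosome 13, 73319838 to 73328542, minus strand), a zinc-binding subunit, gave 26.5, 28.9 and 29.9 CPM in WT livers and 21.6 and 22.4 CPM in Tnfr1-/- livers. It gave 23.1, 20.7 and 19.9 CPM in Casp8-/- Mlkl-/- livers, and 22.4 and 14.2 CPM in Casp8-/- Tnfr1-/- livers 2 and 3, with liver 1 just above liver 3. Liver 2 of the last genotype lay among the Tnfr1-/- and Casp8-/- Mlkl-/- livers, and livers 1 and 3 lay below all others. The log2 fold change against WT was -0.71 (SE 0.181, edgeR adjusted p = 0.0498), at the edge of the threshold, and it was not called without liver 3.

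**Figure D3:**
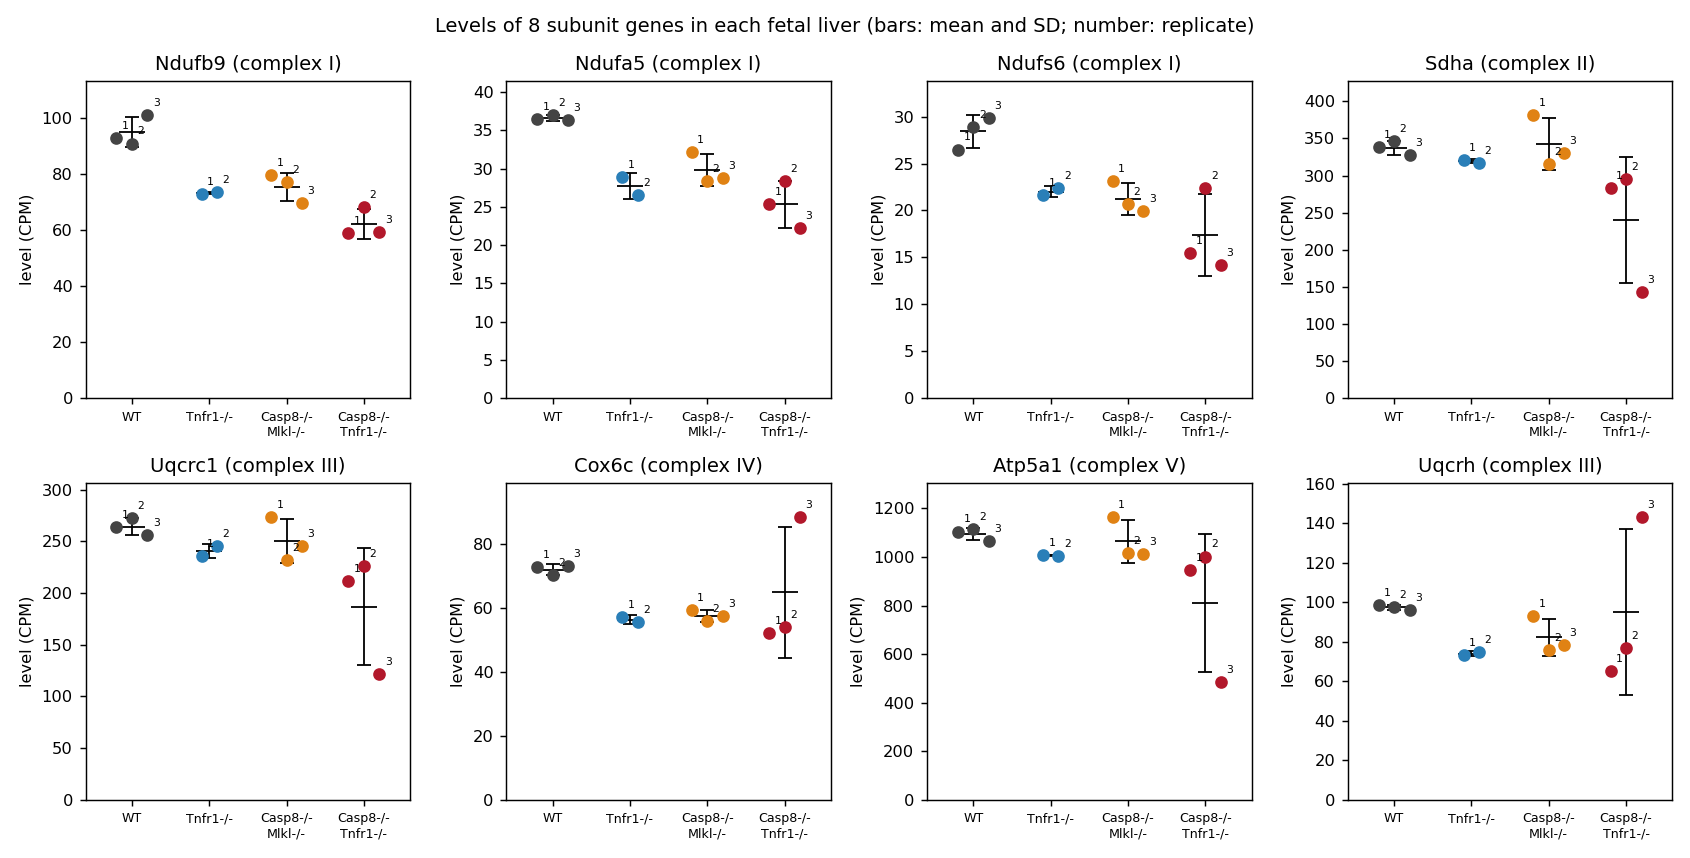
CPM (vertical axes, from 0) of 8 subunit genes in each liver by genotype, with points numbered by replicate and bars for the mean and SD. Ndufb9, Ndufa5 and Ndufs6 were highest in the WT livers, Sdha, Uqcrc1 and Atp5a1 lowest in Casp8-/- Tnfr1-/- liver 3 (142.4, 121.7 and 485.2 CPM), and Cox6c and Uqcrh highest there (88.6 and 143.4 CPM).

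Of 14 core and catalytic subunits, none passed the test, although in all but Cox5b each Casp8-/- Tnfr1-/- liver was below each WT liver. That placement held for 62% of all members and 18.9% of tested genes. Several of the core subunits were far lower in liver 3 than in livers 1 and 2. Sdha, the flavoprotein of succinate dehydrogenase, stood at 338.2, 346.4 and 327.2 CPM in WT livers and at 283.3, 294.8 and 142.4 CPM in Casp8-/- Tnfr1-/- livers. All Tnfr1-/- and Casp8-/- Mlkl-/- livers lay at 315.2 CPM or more, so the Casp8-/- Tnfr1-/- livers were the 3 lowest. The log2 fold change against WT was -0.49 (SE 0.242, edgeR adjusted p = 0.239). Its iron-sulfur partner Sdhb stood at 94.3, 96.5 and 86.2 CPM in WT livers and 77.6, 81.7 and 53.6 CPM in Casp8-/- Tnfr1-/- livers (-0.38, SE 0.165, adjusted p = 0.192).

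In complex I, Ndufv1, which binds NADH, was close to constant in WT livers (166.8, 167.0 and 165.7 CPM). It stood at 151.2 and 158.1 CPM in Tnfr1-/- livers, at 154.7, 140.0 and 150.0 CPM in Casp8-/- Mlkl-/- livers, and at 122.5, 139.7 and 80.6 CPM in Casp8-/- Tnfr1-/- livers. The last group was below all others, and the log2 fold change against WT was -0.54 (SE 0.183, edgeR adjusted p = 0.111). Ndufs1, the largest iron-sulfur subunit, went from 165.2, 175.8 and 171.0 CPM in WT livers to 145.6, 151.9 and 77.4 CPM (-0.45, SE 0.218, adjusted p = 0.233). Ndufs7, which lies near the ubiquinone site, differed by -0.53 (SE 0.139, adjusted p = 0.0561).

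In complex III, Uqcrc1, a core protein, stood at 263.4, 272.5 and 256.3 CPM in WT livers and 211.9, 226.4 and 121.7 CPM in Casp8-/- Tnfr1-/- livers (-0.50, SE 0.21, edgeR adjusted p = 0.18). Uqcrfs1, the Rieske iron-sulfur protein, did not show the low value of liver 3: it stood at 149.6, 154.5 and 162.1 CPM in WT livers and at 110.9, 127.6 and 122.9 CPM in Casp8-/- Tnfr1-/- livers (-0.37, SE 0.147, adjusted p = 0.162). The subunits of one complex thus differed from each other in that liver.

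In complex IV, Cox4i1 stood at 401.4, 391.3 and 387.4 CPM in WT livers, 334.6 and 326.2 CPM in Tnfr1-/- livers, 378.3, 312.5 and 330.4 CPM in Casp8-/- Mlkl-/- livers and 281.7, 319.7 and 292.6 CPM in Casp8-/- Tnfr1-/- livers. No mutant liver reached the WT range, and the log2 fold change of Casp8-/- Tnfr1-/- against WT livers was -0.40 (SE 0.13, edgeR adjusted p = 0.101). Cox5a, a matrix-side subunit, differed by -0.47 (SE 0.153, adjusted p = 0.104). Cox5b, which binds zinc, stood at 6.72, 8.38 and 8.24 CPM in WT livers and at 6.41, 5.82 and 9.80 CPM in Casp8-/- Tnfr1-/- livers, so the groups overlapped (-0.088, SE 0.231, adjusted p = 0.823).

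In complex V, the alpha subunit Atp5a1 stood at 1105, 1114 and 1066 CPM in WT livers and 945, 1002 and 485.2 CPM in Casp8-/- Tnfr1-/- livers (-0.43, SE 0.247, edgeR adjusted p = 0.297). Atp5b stood at 1459, 1471 and 1422 CPM in WT livers and 1178, 1251 and 941.1 CPM in Casp8-/- Tnfr1-/- livers (-0.37, SE 0.163, adjusted p = 0.199). The rotor subunit Atp5c1 differed by -0.26 (SE 0.148, adjusted p = 0.298). For Atp5a1 and Atp5b the Casp8-/- Tnfr1-/- livers were the 3 lowest of the 11, with Atp5a1 at 1006 CPM or more and Atp5b at 1346 CPM or more in the other genotypes.

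Casp8-/- Tnfr1-/- liver 3 split the members, as it split tested genes in general. It was below all 10 other livers for 36 members (45.6%, against 38.8% of tested genes). It was above all of them for 14 (17.7%, against 32.3%). Relative to the mean of 9 livers (leaving out Casp8-/- Mlkl-/- liver 1), the median ratio of its members was 0.805, from 0.347 for Ndufab1, the mitochondrial acyl carrier protein, to 26.8 for Ndufa4l2. Complex IV had a median ratio of 1.24, with 7 of its 14 members above all other livers and none below. In complex I the median was 0.753 (22 of 38 below all others and 5 above), in complex II 0.656 (4 of 4 below), in complex III 0.822 (3 of 8 below and 1 above) and in complex V 0.807 (7 of 15 below and 1 above).

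Uqcrh, the hinge protein of complex III, shows the split. It stood at 98.8, 97.5 and 96.1 CPM in WT livers, 73.1 and 75.0 CPM in Tnfr1-/- livers, 93.1, 75.8 and 78.2 CPM in Casp8-/- Mlkl-/- livers and 65.4, 77.0 and 143.4 CPM in Casp8-/- Tnfr1-/- livers. Livers 1 and 2 of the last genotype were below the WT livers and liver 3 was the highest of all, so that the fitted log2 fold change was -0.034 (SE 0.252, edgeR adjusted p = 0.94). Cox6c, a small complex IV subunit, had the same order, at 72.8, 70.2 and 73.2 CPM in WT livers and 52.1, 54.1 and 88.6 CPM in Casp8-/- Tnfr1-/- livers (-0.15, SE 0.19, adjusted p = 0.622). Both were among the 13 members called lower without liver 3. The epsilon subunit Atp5e, which was not called with or without it, had 52.3, 84.4 and 140.5 CPM in these livers against 111.7, 112.8 and 99.1 CPM in WT livers.

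Short genes kept their level in liver 3 more than long genes. The ratio of liver 3 to the mean of 9 livers ran against counted exon length across the 79 members (Spearman's rho -0.461), whereas over 14341 tested genes with a mean of at least 1 CPM rho was 0.0845. These points all share the same library, and genes are not independent replicates. The median ratio was 1.07 for the 22 members of up to 700 bases, 0.866 for the 34 members of 700 to 1500 bases and 0.666 for the 23 longer ones. Over all genes in the same length ranges the median was 0.988, 0.83 and 0.943. The part that RNA quality or library preparation has in this was not tested.

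**Figure D4:**
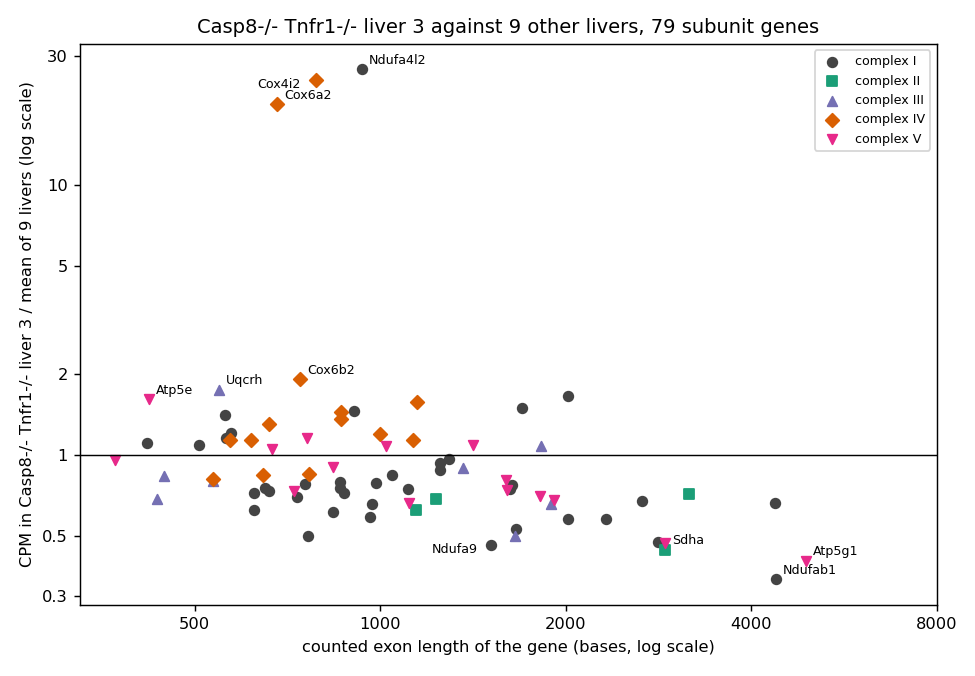
Ratio of the CPM in Casp8-/- Tnfr1-/- liver 3 to the mean of 9 other livers (vertical axis, log scale) against counted exon length in bases (horizontal axis, log scale) for the 79 members, with a symbol for each complex. Most complex IV genes lie above the line at a ratio of 1, and none of them is longer than Cox7a2l (1147 bases). Sdha and some other long genes lie near or under 0.5. The median of the 23 members over 1500 bases is 0.666, and Ndufv3 (1.65) and Ndufs4 (1.49) among them lie above 1. Ndufa4l2, Cox4i2 and Cox6a2 lie highest, at 26.8, 24.4 and 19.9.

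The largest relative differences were in tissue-restricted or inducible isoforms, and they were highest in liver 3. Ndufa4l2, a paralog of Ndufa4 known for its induction by low oxygen, stood at 9.76, 8.13 and 4.50 CPM in WT livers and at 13.3 and 8.70 CPM in Tnfr1-/- livers. It stood at 66.4, 5.23 and 6.46 CPM in Casp8-/- Mlkl-/- livers and at 17.7, 18.0 and 273.5 CPM in Casp8-/- Tnfr1-/- livers. The Casp8-/- Tnfr1-/- livers lay above the WT livers, but Casp8-/- Mlkl-/- liver 1 exceeded 2 of them, and the log2 fold change against WT was 3.78 (SE 1.3, edgeR adjusted p = 0.116). Per kilobase, Ndufa4l2 made up 2.78% to 5.23% of the sum with Ndufa4 in WT livers, 13.3% and 12.4% in Casp8-/- Tnfr1-/- livers 1 and 2, and 75.9% in liver 3. Ndufa4 itself stood at 76.9, 84.8 and 58.1 CPM in these livers against 118.0, 111.7 and 105.0 CPM in WT livers (-0.61, SE 0.166, adjusted p = 0.0635).

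Cox4i2, the oxygen-sensitive isoform of Cox4i1, stood at 9.57 CPM in Casp8-/- Tnfr1-/- liver 3 and at 0.0789 to 0.892 CPM in the other 10 livers (log2 fold change against WT 3.78, SE 1.13, edgeR adjusted p = 0.0802). Cox6a2, the heart and skeletal muscle isoform of Cox6a1, stood at 5.13 CPM in that liver and at 0.164 to 0.377 CPM elsewhere (2.87, SE 1.03, adjusted p = 0.128). They made up 3.08% and 3.33% of the sum with their common isoforms per kilobase in liver 3, and at most 0.228% and 0.426% in the others. Cox7a1, another muscle isoform, was not high in liver 3 (0.855 CPM against 0.76 to 1.25 CPM). Cox8b, a muscle isoform outside the symbol rule, had reads only in liver 3 (1.48 CPM).

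Other isoform pairs, with shares again per kilobase, differed less. Cox6b2, known from testis, stood at 37.8, 34.5 and 43.0 CPM in WT livers and at 23.9, 23.5 and 60.1 CPM in Casp8-/- Tnfr1-/- livers, and made up 12.2% to 19.8% of the sum with Cox6b1 in the other 10 livers and 24.8% in liver 3. Cox7a2l stayed at 18.1% to 23.6% of the sum with Cox7a2 in all 11 livers. Atp5g1 was under 1% of the sum with Atp5g3 in every liver (0.263% to 0.63%), so nearly all counted reads for the c ring of ATP synthase came from Atp5g3. Cox7b stood at 29.9, 31.1 and 39.9 CPM in Casp8-/- Tnfr1-/- livers and 37.9, 34.6 and 32.1 CPM in WT livers.

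Other genes of energy metabolism were taken from fixed lists, chosen with earlier results of these data known. Of the 13 OXPHOS genes of mitochondrial DNA, 10 were tested and none was called between Casp8-/- Tnfr1-/- and WT livers (median log2 fold change -0.77, and -0.33 without liver 3). Their sum was 16456, 17657 and 20205 CPM in WT livers and 16225, 12804 and 1893 CPM in Casp8-/- Tnfr1-/- livers. The mitochondrial genome took 0.143% of all counts in liver 3 and 1.39% to 2.11% in the other 10. The Tnfr1-/- livers (15120 and 13820 CPM) and Casp8-/- Mlkl-/- livers 2 and 3 (15037 and 14501 CPM) were also below the WT livers, and only Casp8-/- Tnfr1-/- liver 3 was far below all others. In mt-Atp6, mt-Co2, mt-Co3, mt-Nd3 and mt-Nd4l, between 98% and 100% of 50-base stretches occur in annotated copies of mitochondrial DNA in the nuclear genome, so hardly any unique reads are left to count for them.

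Of 45 assembly factors, 44 were tested and none was called with all livers. The 17 genes of pyruvate dehydrogenase and the TCA cycle gave 1 lower call, Pdhb, a subunit of pyruvate dehydrogenase (-0.55, SE 0.135, edgeR adjusted p = 0.0431). It stood at 18.2, 18.1 and 20.3 CPM in WT livers and at 12.4, 14.2 and 12.1 CPM in Casp8-/- Tnfr1-/- livers, which did not overlap. None of the 5 tested OXPHOS genes outside the symbol rule was called, Cyc1 (cytochrome c1 of complex III) and Cox8a among them. None of 15 regulators of mitochondrial biogenesis was called, and 12 of them were lowest of all livers in liver 3 (38.8% of tested genes were). Of 8 mitochondrial carriers, Slc25a38, which brings glycine in for heme synthesis, was lower, at 92.0, 105.5 and 119.8 CPM in Casp8-/- Tnfr1-/- livers against 168.8 to 172.7 CPM in WT livers (-0.69, SE 0.156, adjusted p = 0.0324).

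Of 16 glycolysis genes tested, 3 were higher and none lower in Casp8-/- Tnfr1-/- than in WT livers, where 5.1% of all tested genes were called higher. The sum of the glycolysis list was 2621, 2703 and 8020 CPM in Casp8-/- Tnfr1-/- livers and 2392 to 2727 CPM in WT livers, so that only liver 3 lay above the WT range. Slc2a1, the largest part of that sum in WT livers (764.0 to 804.7 CPM), weighs on it. In Casp8-/- Tnfr1-/- livers 1, 2 and 3 Slc2a1 stood at 536.4, 525.6 and 3021 CPM. Hk2, a hexokinase, stood at 22.0, 24.6 and 18.1 CPM in WT livers and at 57.3, 52.5 and 190.9 CPM in Casp8-/- Tnfr1-/- livers, with no overlap (2.21, SE 0.464, edgeR adjusted p = 0.0235). Pfkp, a phosphofructokinase, stood at 10.8, 9.60 and 8.52 CPM in WT livers and 25.4, 27.7 and 200.5 CPM in Casp8-/- Tnfr1-/- livers (3.13, SE 0.731, adjusted p = 0.0366). Pkm, a pyruvate kinase, stood at 39.8, 37.1 and 30.1 CPM and at 64.1, 87.7 and 311.5 CPM in the same groups (2.11, SE 0.496, adjusted p = 0.037). Each was highest in liver 3, and each was also called without that liver and Casp8-/- Mlkl-/- liver 1.

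Without Casp8-/- Tnfr1-/- liver 3 and Casp8-/- Mlkl-/- liver 1, the same lists gave more calls between Casp8-/- Tnfr1-/- and WT livers, and so did tested genes in general (13.5% lower and 17.8% higher). Of the mitochondrially encoded genes mt-Nd1, mt-Nd4 and mt-Nd6, all of complex I, were lower. Of 44 assembly factors 10 were lower and 1 higher, and of 17 genes of the TCA cycle 3 were lower. Among the 15 regulators Nrf1, Tfam and Tfb1m were lower, and of 16 glycolysis genes 8 were higher and 2 lower.

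**Figure D5:**
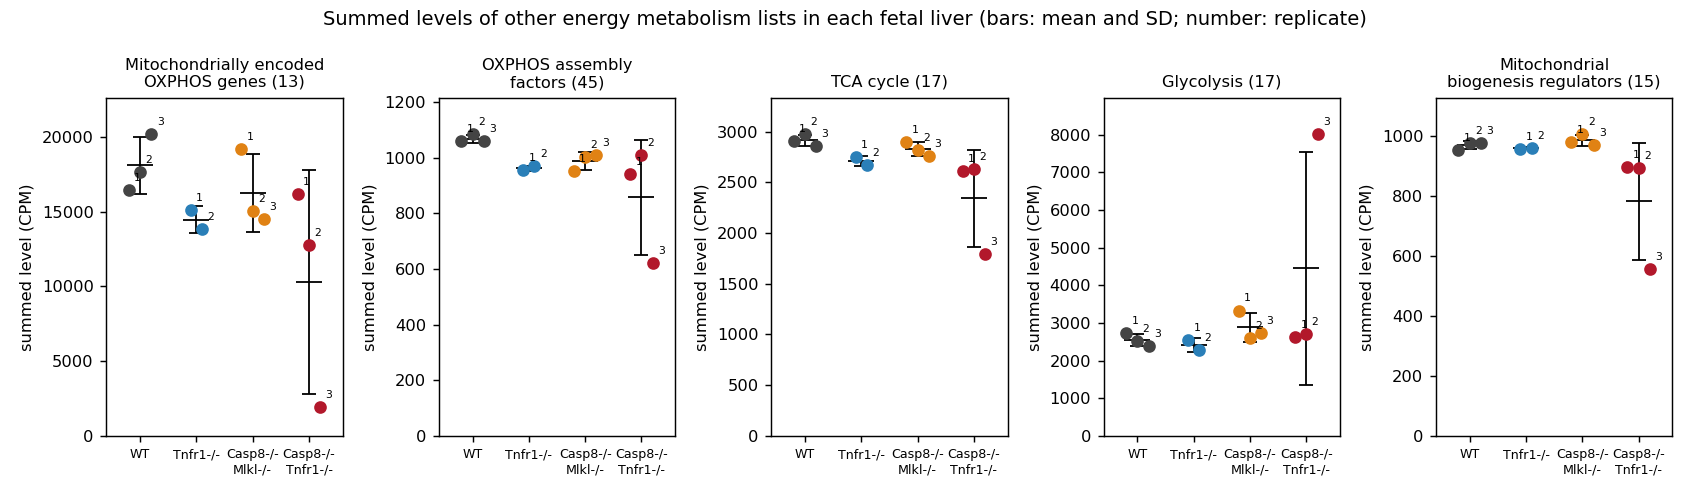
Summed CPM (vertical axes, from 0) of 5 other gene lists in each liver by genotype, with points numbered by replicate and bars for the mean and SD. In Casp8-/- Tnfr1-/- liver 3 the mitochondrially encoded genes (1893 CPM), assembly factors (623 CPM), TCA cycle (1793 CPM) and biogenesis regulators (556 CPM) had their lowest sums and glycolysis its highest (8020 CPM).

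Markers of several cell types differed in the same livers. The 7 neutrophil markers summed to 5083, 6234 and 14484 CPM in Casp8-/- Tnfr1-/- livers and to 1059 to 3320 CPM in all others, and S100a8, S100a9, Ngp and Ltf were called higher than in WT livers. The other 3 did not all go with the sum: Mpo (53.4 CPM against 336.4 to 819.5) and Elane (14.4 CPM against 48.7 to 143.1) were at their lowest in liver 3, and Camp (215.5 CPM) was below livers 1 and 2 there. The 10 striated muscle markers summed to 1839 CPM in Casp8-/- Tnfr1-/- liver 3 and to 15.7 to 40.4 CPM in the other livers, with all 10 highest in liver 3. Striated muscle is no part of the liver, and the share of this library that comes from other tissue was not tested. The 8 erythroid markers summed to 23288, 23731 and 73518 CPM in Casp8-/- Tnfr1-/- livers against 34091 to 37918 CPM in WT livers. The sum in liver 3 was led by Hbb-bt and Hba-a1 (30481 and 25020 CPM), while Klf1 and Epor were at their lowest there (81.0 and 82.6 CPM). Among 8 macrophage markers Clec4f and Marco were lower and Cd68 higher than in WT livers, and they summed to 259, 246 and 173 CPM against 261 to 348 CPM, and the 4 megakaryocyte markers to 264, 378 and 175 CPM against 200 to 340 CPM.

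The 8 hepatocyte markers, among them Alb and Afp, summed to 49764 to 74024 CPM in 9 livers, to 94046 CPM in Casp8-/- Tnfr1-/- liver 3 and to 201489 CPM in Casp8-/- Mlkl-/- liver 1, where each of the 8 was the highest of all livers. The 6 endothelial markers ranged from 334 to 650 CPM. In the fit without the 2 livers with the lowest TMM factors, in which 51 members were lower in Casp8-/- Tnfr1-/- than in WT livers, 8 of 8 erythroid and 5 of 8 hepatocyte markers were also lower and 7 of 7 neutrophil markers higher. The part of these cell types in the subunit levels was not tested. In a whole liver, fewer cells of a mitochondria-rich type and less subunit RNA per cell cannot be told apart.

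Promoters of the members were compared with those of other genes, since most of the members were low in the same livers. RefSeq (GRCm38.p6) gave a stretch from 250 bases before to 50 bases after the start for 64 of the 79 members, and in 42 of these the RefSeq start lay within 50 bases of the GENCODE start. The core of the motif of NRF1, a regulator of mitochondrial genes, GCATGCGC, occurred in 12.5% of the 64 members and in 3.6% of 17491 protein-coding promoters. The full NRF1 motif, which is this core preceded by GC and reads alike on both strands, occurred in 6.25% and 1.32%. The ETS motif CCGGAAG, bound by GABP, occurred in 20.3% and 11.9%, and the YY1 motif AAGATGGC in 14.1% and 3.22%. The hypoxia core ACGTG occurred in 23.4% and 20.7%, and TATAAA in 6.25% and 13.3%. All were searched on both strands, a match is only a match of letters, and no test was made of these shares.

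The stretches before the start are shown for 3 members whose 8 mutant livers were all below the WT livers (Cox6a1, Ndufa11 and Ndufb3) and for Uqcrh, which was highest in Casp8-/- Tnfr1-/- liver 3. Capitals mark the full NRF1 motif and the ETS motif, the latter on the other strand as CTTCCGG. They are chr5:115348959-115349208 (minus strand), chr17:56717512-56717761 (plus), chr1:58586147-58586396 (plus) and chr4:116075071-116075320 (minus) of GRCm38.p6, each 250 bases, read 5′ to 3′ on the strand of the gene.
Cox6a1: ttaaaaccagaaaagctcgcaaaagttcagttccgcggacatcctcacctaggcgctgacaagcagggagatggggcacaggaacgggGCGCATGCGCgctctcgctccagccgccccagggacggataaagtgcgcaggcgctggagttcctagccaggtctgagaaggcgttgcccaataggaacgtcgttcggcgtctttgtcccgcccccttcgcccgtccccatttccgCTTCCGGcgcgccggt
Ndufa11: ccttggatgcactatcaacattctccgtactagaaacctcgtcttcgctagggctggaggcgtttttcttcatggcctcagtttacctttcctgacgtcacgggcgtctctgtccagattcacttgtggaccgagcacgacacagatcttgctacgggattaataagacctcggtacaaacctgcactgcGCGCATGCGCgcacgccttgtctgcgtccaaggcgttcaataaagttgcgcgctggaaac
Ndufb3: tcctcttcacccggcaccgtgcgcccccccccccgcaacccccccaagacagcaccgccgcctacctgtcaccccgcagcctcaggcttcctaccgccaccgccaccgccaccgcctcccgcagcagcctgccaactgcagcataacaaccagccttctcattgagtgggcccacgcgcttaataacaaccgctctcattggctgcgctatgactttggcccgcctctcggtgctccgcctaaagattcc
Uqcrh: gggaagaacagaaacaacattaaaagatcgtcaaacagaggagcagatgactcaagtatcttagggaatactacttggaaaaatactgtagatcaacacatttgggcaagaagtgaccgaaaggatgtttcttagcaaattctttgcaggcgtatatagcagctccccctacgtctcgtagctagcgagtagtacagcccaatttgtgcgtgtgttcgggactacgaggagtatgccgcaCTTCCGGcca
Cox6a1 held an NRF1 and an ETS match, Ndufa11 an NRF1 match, Ndufb3 no match, and Uqcrh an ETS match just before its start. Of the 14 members with all mutant livers below the WT livers, 11 had a promoter in the table, and the full NRF1 motif was in 2 of these, both shown here, and the ETS motif in 3.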

How the data were processed

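Total RNA of 11 single fetal livers was sequenced as 50-base single-end reads from polyadenylated RNA. The labels and the methods of the study name different kits (TruSeq RNA v2, TruSeq Stranded mRNA) and sequencers. Reads were aligned to GRCm38/mm10 with GSNAP (per the submitters' processing notes). The counting tool, gene annotation and strand setting are not given in the sources used here. The authors deposited, for each gene, a raw count, the exonic width used for counting and an RPKM value, which divides the count by that width and by a read total. Counts were used for every result, widths for levels per kilobase, and RPKM only to check that it follows from the counts.

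Biotypes and positions came from GENCODE M21 (52489 IDs matched). Genes passed filterByExpr of edgeR 4.0.16 (R 4.3.3, minimum count 10), which kept all 79 members. Counts were scaled by TMM and fitted with glmQLFit and glmQLFTest over 17243 genes with the 4 genotypes in 1 model, although the study names limma, because these are counts. The p-values were adjusted by Benjamini-Hochberg over all genes, with a threshold of 0.05. The fit was run on simulated counts with planted changes, a smaller spread than in these livers and no outlying liver. That run therefore cannot tell how many calls are missed or false in these data. The common biological coefficient of variation was 33.3%. No 2 livers agreed within sampling noise (chi-square per degree of freedom at least 6.45). Litters are not given, and the p-values measure the spread between these livers only. Other scalings, filters, limma-voom 3.58.1, DESeq2 1.42.0, a replicate block and leaving out livers were tried.

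Members, gene lists and tests were chosen with earlier results of these data known. Named members were those called in any comparison, the highest and lowest per kilobase of each complex, a set of core subunits and paralog sets, and at most 3 called genes per other list. Atp5e, Cox6c, Uqcrh, Ndufab1, Cox8b, the promoters and the members without overlap were picked for mention once their values had been seen. For 1 core member values are not reported here, and it has no row in the plot of members by liver.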

Additional observations from a re-analysis of the deposited data

How the results depend on the processing

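The direction of the member median held in every setting tried, and the number of members called against WT livers did not. In Casp8-/- Tnfr1-/- against WT livers, 3 members were called, with 5.8% of tested genes called. With library totals only, the 2 genotypes alone in the fit or a replicate block, 0 were called (5.73%, 3.02% and 3.32% of tested genes). There was 1 call without the filter on low counts (Cox4i2, higher, with 3.8% of tested genes) and 7 with upper-quartile factors (5.9%). DESeq2 called 21, of which 1 was higher, which is 26.6% of members against 13.7% of tested genes. Leaving out 1 liver gave 0 to 13 calls between Casp8-/- Tnfr1-/- and WT livers. DESeq2 called 3 members against Casp8-/- Mlkl-/- livers (5.46% of tested genes) and 8 over any genotype (10.1%). Fitting Tnfr1-/- and WT livers alone gave 11 calls, which is 14.3% of members against 1.6% of tested genes. Library totals moved the median over all genes from -0.01 to -0.107 between Casp8-/- Tnfr1-/- and Tnfr1-/- livers, and the member median to -0.24. Chosen after seeing the data, limma-voom with quality weights called 59 members (Casp8-/- Tnfr1-/- against WT), 5 (against Tnfr1-/-), 6 (against Casp8-/- Mlkl-/-), 27 (Casp8-/- Mlkl-/- against WT), 11 (Tnfr1-/- against WT) and 46 (any genotype), where 30.6%, 25.1%, 15.7%, 6.04%, 1.57% and 31.8% of all genes were called, and leaving out Casp8-/- Tnfr1-/- liver 3 and Casp8-/- Mlkl-/- liver 1 called 52, 3, 4, 24, 6 and 44. The member median between Casp8-/- Tnfr1-/- and Casp8-/- Mlkl-/- livers was -0.10 and -0.079 in these. The fitted change of Cox5b turned to 0.0064 and 0.065, and that of Uqcrh to 0.18 and 0.11, without Casp8-/- Tnfr1-/- liver 1 and 2, against -0.34 and -0.45 without liver 3. The cause was not tested. The numbers in the labels were not used to pair livers in the main fit. Deviations from the genotype mean in same-numbered livers of different genotypes correlated at -0.297 to 0.275 over 15 pairs. By this measure 6 of 11 livers correlated best with their own number. With 2 or 3 livers per genotype, this cannot exclude a shared litter or batch. Members under 1 CPM, such as Cox4i2 in most livers, rest on few counts.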
